A study of Mus musculus with 6 samples.

Results

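The genes described here encode subunits of the PPP family of serine/threonine phosphatases: the catalytic subunits of PP1, PP2A, calcineurin (PP2B), PP4, PP5 and PP6, and the scaffold, regulatory and targeting subunits that bind them. They were chosen by name, as all genes on the array whose symbol begins with Ppp1 to Ppp6. This gave 76 of the 27376 gene names on the array, read by 155 probes. By family, 44 of them belong to PP1, 17 to PP2A and 15 to the other phosphatases.

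Gene expression was measured in livers of 6 male BALB/c mice on single-colour Agilent arrays, one array per mouse. From 6 weeks of age, 3 mice drank water containing microcystin-LR (MC-LR) at 100 µg/L for 12 months and 3 control mice drank normal sterile water for the same time. The livers of a group came from independent mice, and no genetic modification is stated for either group. Values are log2 normalized signals, and a difference is the MC-LR mean minus the control mean.

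PPP phosphatases remove phosphate from serine and threonine. A small set of catalytic subunits is directed to its substrates by a large set of regulatory subunits. PP1 binds regulators, many of which dock through a short RVxF-type motif. PP2A is assembled from a catalytic subunit, a scaffold and a B subunit, of which there are several kinds. MC-LR, a cyclic peptide toxin of cyanobacteria that hepatocytes take up through organic anion transporters, binds the catalytic site of PP1 and PP2A and blocks their activity. In hepatocytes these enzymes act on glycogen metabolism, translation, the cytoskeleton and cell division. The arrays report transcript levels, not phosphatase protein or activity.

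The probes that read the PP1 catalytic subunits and Ppp2ca of PP2A are shown because these proteins are targets of MC-LR and are closely related to each other. Each is a 60-base oligonucleotide on the array, given 5′ to 3′ with its mm9 position from the scanner files, and capitals mark the longest run of letters shared with a printed probe of another of these genes.
Ppp1ca, chr19:4195105-4195164, plus strand: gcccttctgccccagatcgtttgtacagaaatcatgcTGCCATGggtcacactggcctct
Ppp1cb, chr5:32794896-32794955, plus strand: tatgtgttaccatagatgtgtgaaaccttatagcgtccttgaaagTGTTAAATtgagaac
Ppp1cc, chr5:122625161-122625220, plus strand: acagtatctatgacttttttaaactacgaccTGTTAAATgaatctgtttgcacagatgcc
Ppp2ca, chr11:51935900-51935959, plus strand: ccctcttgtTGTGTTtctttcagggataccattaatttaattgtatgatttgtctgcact
No printed probe of one gene shared more than 8 consecutive bases with a printed probe of another. The probes were compared only with each other and not with the transcripts of related genes, and Ppp2cb was left out. The comparison therefore cannot show how specific a probe is. Exon and UTR annotation of mm9 was not used here.

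Each array had 64.2% to 73.1% of its non-control probes well above background and none saturated, and the arrays correlated at r = 0.982 to 0.993 with each other across probes. Slide 1 carried controls 1 and 2 and no treated mouse, whereas slide 2 carried control 3 beside the 3 MC-LR mice. The number of arrays limits the precision. All 8 hepatocyte markers were well above background on all 6 arrays, with a summed log2 level of 19.21 to 19.31 in controls and 19.28 to 19.29 with MC-LR. In whole liver, fewer cells of a type and less RNA per cell cannot be told apart.

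A total of 67 of the 76 subunit genes passed the filter on dim probes, which required all 3 mice of either group to read well above background, and 65 were well above background on all 6 arrays. All 11 catalytic subunits, all 17 PP2A genes and all 15 genes of the other phosphatases passed. The 9 that did not are all in the PP1 group. Among them are the inhibitors Ppp1r1c, Ppp1r14d and Ppp1r17, the Ppp1r2 pseudogenes Ppp1r2-ps7 and Ppp1r2-ps9, and the glycogen-targeting subunits Ppp1r3a, Ppp1r3e and Ppp1r3f. Ppp1r36 was the last of them. None of the 9 was well above background on more than 1 array.

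None of the 67 genes differed between the groups at an adjusted p under 0.05 (limma, Benjamini-Hochberg over 18910 genes, of which 0.0159% passed). At an unadjusted p under 0.05 there were 7 of them, 4 higher with MC-LR (Ppp1r3g, Ppp1r15b, Ppp3r1 and Ppp2r5a) and 3 lower (Ppp2r3d, Ppp1r21 and Ppp1r12a). These 7 are 10.4% of the family's tested genes, against a background of 12.9% over all genes (7.46% higher and 5.4% lower), so the family's share lay near that of any gene. The count of higher genes was 1 without control 1 and 2 without control 2. That of lower genes was 0 without control 1, control 2 or MC-LR 1, and 5 without control 3. The groups did not overlap for 15 genes, 9 higher and 6 lower, which is 22.4% against a background of 20.4% (11.2% higher and 9.2% lower).

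Most members differed little. The median difference was 0.04 over the 67 genes and -0.01 over all genes tested, with 35 members above 0 and 32 below, where 48.5% of all genes tested lay above 0. The median absolute difference was 0.12 in the family and 0.17 over all genes. The absolute difference stayed under 0.2 for 50 of the 67 members, which compares with 56.9% of all genes tested. It reached 1 on the log2 scale in 3 members, Ppp1r3g, Ppp1r3c and Ppp1r42, against a background of 2.42%. The median SD between mice of a group was 0.15 in the family and 0.20 over all genes. By family, the median difference was 0.04 for 35 tested PP1 genes, -0.05 for 17 PP2A genes and 0.05 for 15 genes of the other phosphatases, and with slide as a block it was -0.01, -0.04 and 0.05.

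**Figure D1:**
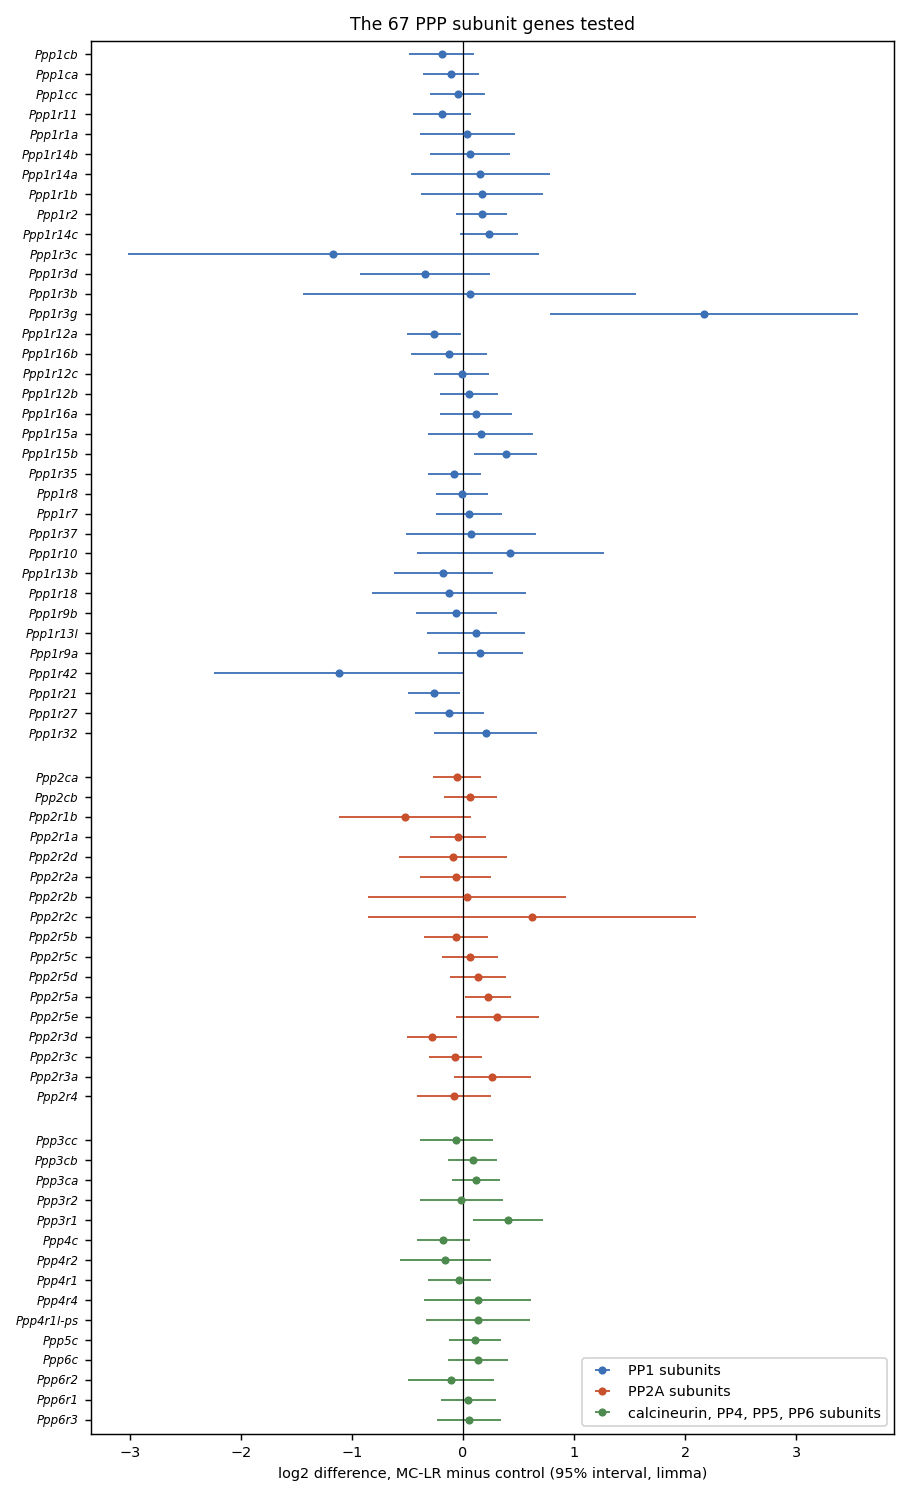
Log2 difference (MC-LR minus control, horizontal axis) of each of the 67 subunit genes tested, with its 95% interval from limma, 3 mice per group; colours give the family. Most points lie within 0.2 of 0, and Ppp1r3g (2.17), Ppp1r3c (-1.17) and Ppp1r42 (-1.12) lie farthest out.

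The catalytic subunits of PP1, the toxin's targets, had overlapping groups for all 3 genes at the brightest probe. Ppp1ca, which encodes PP1 alpha, stood at 13.32, 13.28 and 13.20 in controls 1 to 3 and at 13.12, 13.30 and 13.07 in MC-LR mice 1 to 3. The second MC-LR mouse lay within the control range and the other MC-LR mice just below it, for a difference of -0.11 with a 95% interval of -0.36 to 0.15 (adjusted p = 0.694). Ppp1cb, the beta isoform and the catalytic partner of the myosin phosphatase, stood at 12.15, 12.33 and 12.04 in controls and at 11.98, 11.87 and 12.09 with MC-LR. Its difference of -0.19 (interval -0.48 to 0.10, adjusted p = 0.535) was the largest of the PP1 catalytic subunits. For Ppp1cc, the gamma isoform, the values were 12.37, 12.37 and 12.57 in controls against 12.45, 12.34 and 12.38, a difference of -0.05 (interval -0.30 to 0.20). A second probe of Ppp1cc, at chr5:122624307-122624366, read 9.93, 9.95 and 9.92 in controls and 9.68, 9.69 and 9.84 with MC-LR. Its groups were apart, with a difference of -0.19 (unadjusted p = 0.0863, adjusted p = 0.449). At the brightest probes all 3 differences were below 0, with a median of -0.11.

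PP2A has 2 nearly identical catalytic subunits, and neither differed beyond its spread. Ppp2ca, the alpha subunit, stood at 11.89, 11.99 and 11.91 in controls and at 11.82, 11.88 and 11.92 with MC-LR, a difference of -0.06 (interval -0.28 to 0.16, adjusted p = 0.821). Its within-group SD was at percentile 3.56 of all genes tested, so it was among the steadier transcripts on the array. The beta subunit Ppp2cb stood at 9.37, 9.42 and 9.55 in controls and at 9.48, 9.49 and 9.57 with MC-LR, a difference of 0.07 (interval -0.17 to 0.30, adjusted p = 0.803). Taking the PP1 and PP2A catalytic subunits together, the intervals of the 5 genes reached from 0.716-fold to 1.23-fold of the control level. A p that misses the threshold does not show equal levels. These intervals give the range of change the arrays leave possible for the probes used, in a fit without slide. With slide as a block the SE of each of the 5 genes was larger, for Ppp1ca 0.14 against 0.10.

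Ppp2ca was read by 2 further probes, both well above background on all 6 arrays, and they are printed because their differences had the other sign.
Ppp2ca, chr11:51940470-51940529, plus strand: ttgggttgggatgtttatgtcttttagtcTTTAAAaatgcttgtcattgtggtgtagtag
Ppp2ca, chr11:51934447-51934506, plus strand: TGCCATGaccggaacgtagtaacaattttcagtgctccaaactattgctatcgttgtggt
The first read 5.84, 6.11 and 5.71 in controls and 6.29, 6.11 and 6.24 with MC-LR, a difference of 0.33 (unadjusted p = 0.048, adjusted p = 0.383). The second differed by 0.02. With the mean of the 3 probes in place of the brightest one, the difference of Ppp2ca turned from -0.06 to 0.10.

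The scaffold of PP2A, on which the trimer is built, is encoded by Ppp2r1a and Ppp2r1b. Ppp2r1a, the alpha scaffold, stood at 9.34, 9.23 and 9.33 in controls and 9.28, 9.35 and 9.12 with MC-LR (difference -0.05, interval -0.30 to 0.21). Ppp2r1b, the beta scaffold, stood at 8.50, 8.53 and 7.69 in controls and at 7.64, 7.81 and 7.71 with MC-LR. Control 3, on the same slide as the MC-LR arrays, lay with them and not with the other controls. The difference was -0.52 ± 0.24 (SE, adjusted p = 0.431) over all arrays. Leaving out control 3 made it -0.80 (adjusted p = 0.0656), and fitting slide as a block made it 0.03. The other passing probes of Ppp2r1b differed by -0.30 and 0.11.

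The catalytic subunits of the remaining phosphatases showed differences of the same small size. Ppp3ca, a catalytic subunit of the calcium-activated phosphatase calcineurin, stood at 12.20, 12.19 and 12.28 in controls and at 12.31, 12.32 and 12.39 with MC-LR. The groups did not overlap, and the difference was 0.12 (interval -0.10 to 0.33, adjusted p = 0.609). At the brightest probe Ppp3cb, a second calcineurin catalytic subunit, differed by 0.08 with every MC-LR value above every control value, and Ppp3cc by -0.06. The other passing probes of Ppp3cb differed by -0.06, -0.05 and 0.20. The first of these was nearly as bright as the probe used, and its groups overlapped. Ppp4c, the catalytic subunit of PP4, stood at 10.48, 10.45 and 10.32 in controls and at 10.32, 10.22 and 10.18 with MC-LR, the groups just apart (difference -0.18, interval -0.42 to 0.06, adjusted p = 0.489). A second probe of Ppp4c differed by -0.04 with overlapping groups. Ppp5c, a phosphatase that binds the HSP90 chaperone, differed by 0.11 and Ppp6c by 0.14, each with overlapping groups at the brightest probe. A second probe of Ppp5c read 8.07, 8.15 and 7.999 in controls and 8.31, 8.28 and 8.32 with MC-LR. Its groups were apart, with a difference of 0.23 (limma, unadjusted p = 0.0452, adjusted p = 0.378). At the brightest probes of all 11 catalytic subunits the differences ran from -0.19 to 0.14 with a median of -0.05, and 0 had an unadjusted p under 0.05.

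**Figure D2:**
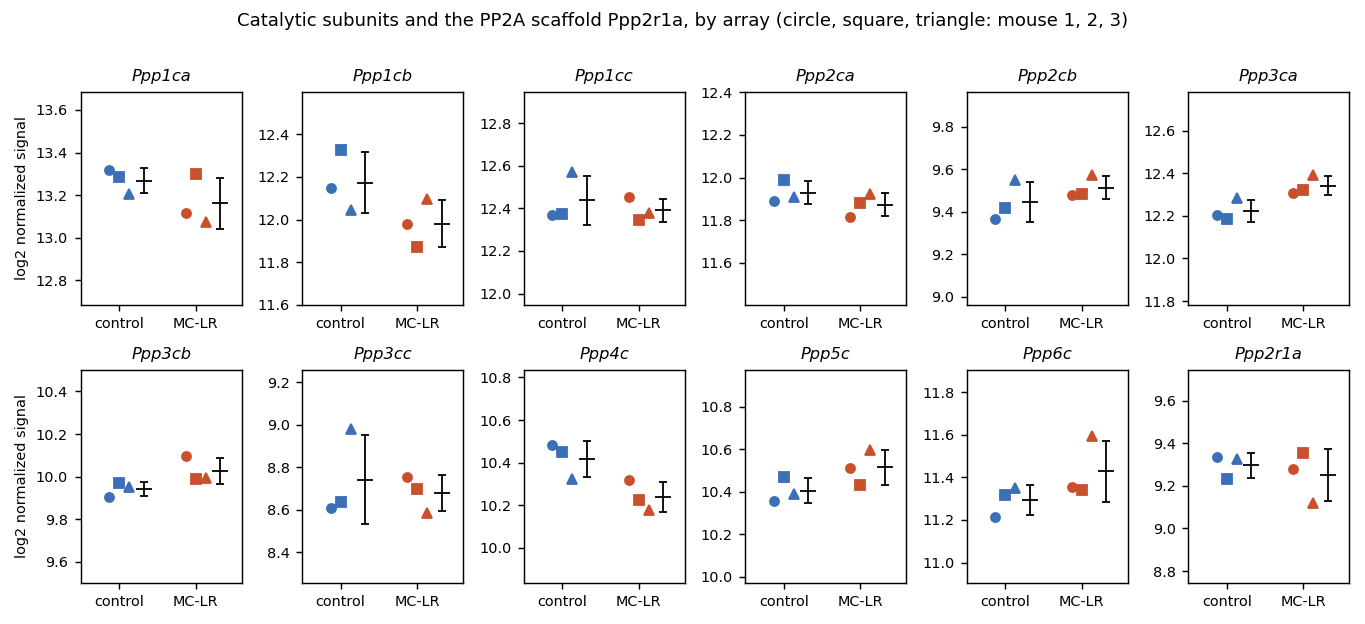
Log2 normalized signal (vertical axis) of the 11 catalytic subunits and the scaffold Ppp2r1a in each mouse, controls in blue and MC-LR mice in orange, with the mean and SD (n = 3) as a black bar. The vertical axes differ in position and each covers at least 1 log2 unit; the groups stand apart in Ppp3ca, Ppp3cb and Ppp4c and overlap in the other panels.

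PP1 inhibitors block the catalytic subunit directly. Of the 12 genes grouped under this role, which include the pseudogenes Ppp1r2-ps7 and Ppp1r2-ps9, 7 were tested. Of these, 6 were above 0 and 1 below, with a median difference of 0.16 and none at an unadjusted p under 0.05. Over all genes tested 48.5% lay above 0. The count moved with control 3, as seen in genes added here after their values were seen. Without that array Ppp1r14a (-0.08), Ppp1r1b (-0.06) and Ppp1r1a (-0.06) also lay below 0. Ppp1r2, Ppp1r14b and Ppp1r14c stayed above it. With slide as a block Ppp1r14b turned to -0.20. Ppp1r1a passed the filter only through the MC-LR arrays. Ppp1r2 encodes inhibitor-2, which also acts as a chaperone of new PP1. It stood at 9.20, 9.29 and 9.12 in controls and at 9.32, 9.39 and 9.40 with MC-LR (difference 0.17, adjusted p = 0.495). Every MC-LR value lay above every control value. Of the 4 other passing probes of Ppp1r2, those well above background on all 6 arrays were also higher with MC-LR, by 0.11 to 0.26. The remaining probe differed by 0.64 but was dim, at 4.07, 3.99 and 4.71 in controls and 4.94, 4.99 and 4.75 with MC-LR. It was well above background on 4 arrays and so passed the filter through a single group, which can favour its direction. Ppp1r14c, a PP1 inhibitor activated by protein kinase C, stood at 5.02, 4.97 and 4.98 in controls and 5.29, 5.06 and 5.32 with MC-LR (difference 0.23, adjusted p = 0.427, and 0.06 with normexp background correction). Ppp1r11, inhibitor-3, was the gene below 0 over all arrays. Its values of 9.52, 9.58 and 9.29 in controls against 9.27, 9.28 and 9.28 put control 3 next to the MC-LR mice, with the groups just apart, and the difference of -0.19 was -0.02 with slide as a block.

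Glycogen-targeting subunits bring PP1 to glycogen particles, where it activates glycogen synthase and inactivates glycogen phosphorylase. Of 7 on the array 4 were tested, and they held both the largest positive and the largest negative difference of the family. Ppp1r3g, probed at chr13:36061999-36062058, stood at 6.52, 7.10 and 5.18 in controls and at 8.94, 8.69 and 7.66 with MC-LR. The lowest MC-LR mouse lay above the highest control. Its difference was 2.17 ± 0.57 (SE), or 4.49-fold with a 95% interval of 1.72 to 11.8 (unadjusted p = 0.0087, adjusted p = 0.269). The size of the difference moved with the setting, to 3.26 with slide as a block (adjusted p = 0.138), 1.62 without control 3 (adjusted p = 0.141) and 1.37 with normexp background correction (adjusted p = 0.226). It was above 0 in every alternative run, with adjusted p from 0.138 to 0.676.

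Ppp1r3c encodes the subunit known as protein targeting to glycogen, and its probe lies at chr19:36806457-36806516. It stood at 12.52, 11.56 and 9.47 in controls and at 10.17, 10.28 and 9.60 with MC-LR. Controls 1 and 2 lay above every MC-LR mouse, and control 3 lay below every one of them. The difference was -1.17 ± 0.76 (SE, adjusted p = 0.553) over all arrays. Leaving out control 3 made it -2.02 (adjusted p = 0.0856), and fitting slide as a block made it 0.55. Within slide 2, which sets the MC-LR mice against control 3 alone, it was also 0.55. A second probe of Ppp1r3c read 7.59, 6.70 and 4.02 in controls and 5.17, 5.38 and 4.79 with MC-LR, the same order of the controls.

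Ppp1r3b and Ppp1r3d are described here after their values were seen. Ppp1r3b, the main glycogen-targeting subunit known from rodent liver, stood at 9.53, 9.65 and 9.31 in controls and at 8.73, 8.90 and 11.03 with MC-LR. One MC-LR mouse lay above all controls and the others below all of them, so the mean difference was 0.06 with an interval of -1.44 to 1.56. Ppp1r3d stood at 6.82, 6.82 and 7.58 in controls and at 6.52, 6.91 and 6.78 with MC-LR (difference -0.34). The Ppp1r3d difference was -0.09 without control 3 and -0.84 with slide as a block. Of the 4 tested glycogen-targeting genes, 3 were among the most variable of the family and Ppp1r3d, with an SD of 0.34 at percentile 74.8, was not. The pooled within-group SD was 1.13 for Ppp1r3c, 0.92 for Ppp1r3b and 0.85 for Ppp1r3g, which put them at percentiles 99.3, 98.3 and 97.6 of all genes tested. The dim PP2A gene Ppp2r2c, at percentile 98.2, lay among them.

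**Figure D3:**
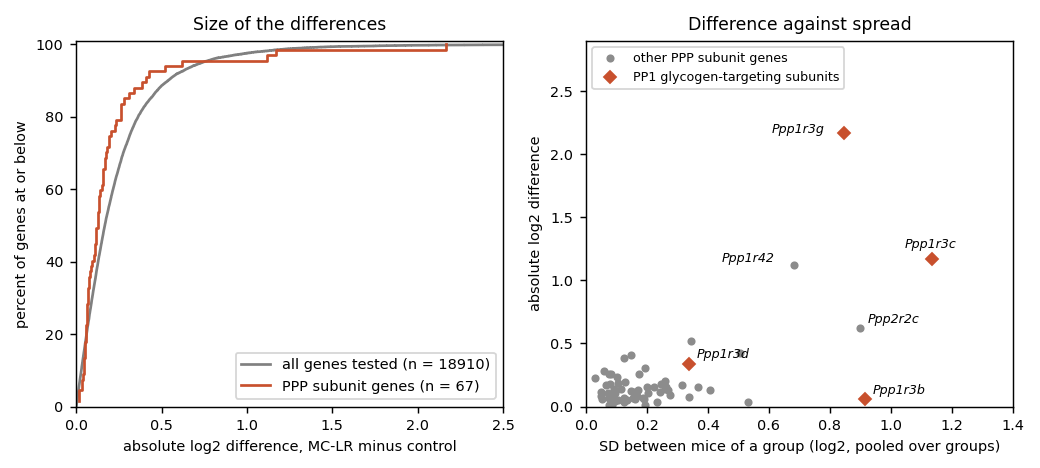
Left, the cumulative percent of genes (vertical axis) at or below each absolute log2 difference (horizontal axis, drawn to 2.5) for all 18910 genes tested and for the 67 subunit genes, whose median is 0.12 against 0.17. Right, the absolute log2 difference of each subunit gene against the SD between mice of a group; Ppp1r3c, Ppp1r3b and Ppp1r3g have SDs of 1.13, 0.92 and 0.85.

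The promoters of Ppp1r3g and Ppp1r3c are printed because these genes differed or varied most within the family. They cover 250 bases before to 50 bases after the gene's start in RefSeq's GRCm38.p6 annotation, 5′ to 3′ on the gene's strand, and capitals mark an E-box.
Ppp1r3g, chr13:35967656-35967955, plus strand: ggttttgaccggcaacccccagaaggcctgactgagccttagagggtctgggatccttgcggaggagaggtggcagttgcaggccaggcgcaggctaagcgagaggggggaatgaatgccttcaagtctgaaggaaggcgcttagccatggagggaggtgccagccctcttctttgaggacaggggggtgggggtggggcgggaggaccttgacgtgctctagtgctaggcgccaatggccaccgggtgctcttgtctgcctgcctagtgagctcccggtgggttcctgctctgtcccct
Ppp1r3c, chr19:36736555-36736854, minus strand: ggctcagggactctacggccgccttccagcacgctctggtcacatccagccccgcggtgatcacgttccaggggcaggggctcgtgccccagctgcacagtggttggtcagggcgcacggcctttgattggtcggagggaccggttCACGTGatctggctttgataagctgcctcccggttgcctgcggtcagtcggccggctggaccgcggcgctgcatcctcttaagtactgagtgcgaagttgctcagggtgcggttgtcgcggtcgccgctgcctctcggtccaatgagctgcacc
Both strands were searched for the E-box CACGTG, which clock and MYC family factors bind, the D-box TTANGTAA of PAR bZIP factors, the cAMP response element TGACGTCA and the forkhead site TGTTTAC. The Ppp1r3c promoter holds 1 E-box, at position -104 from the gene's start, and the Ppp1r3g promoter holds none of the 4 motifs. RefSeq promoters matched 56 of the 76 genes by symbol. An E-box lies in 3 of these 56 (Ppp1r3c, Ppp1r3d and Ppp1r9a) and in 7.15% of all 32851 promoters. A cAMP response element lies in 4 of them, including Ppp1r15a and Ppp2ca, and in 1.79% of all promoters. The D-box lies in 1 of them (2.32% of all promoters) and the forkhead site in none (3.65%). A match in these windows is a description of the letters, not evidence of binding.

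PP1 is directed to eIF2 alpha, whose phosphorylation holds back translation, by Ppp1r15a (GADD34, stress-induced) and Ppp1r15b (CReP, constitutive). Ppp1r15b stood at 10.72, 10.81 and 10.75 in controls and at 11.02, 11.07 and 11.33 with MC-LR. All MC-LR mice lay above the tight control range, by 0.38 ± 0.12 on average (SE), or 1.31-fold with an interval of 1.07 to 1.59 (unadjusted p = 0.0158, adjusted p = 0.302). The difference was 0.39 with slide as a block and 0.38 without control 3, and a second probe differed by 0.48. Ppp1r15a stood at 6.09, 6.10 and 6.69 in controls and 6.58, 6.29 and 6.49 with MC-LR. Its groups overlapped, and its difference of 0.16 turned to -0.24 with slide as a block.

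Myosin- and membrane-targeting subunits link PP1 to the contractile cytoskeleton and to membranes, and all 5 were tested. Ppp1r12a, or MYPT1, is the targeting subunit of the myosin phosphatase. It stood at 10.59, 10.67 and 10.72 in controls and at 10.30, 10.40 and 10.50 with MC-LR, the groups apart (difference -0.26, interval -0.50 to -0.02, unadjusted p = 0.0384, adjusted p = 0.363). A second probe differed by -0.06. The summed level of 7 skeletal and smooth muscle markers was 11.34 to 11.61 in controls and 10.91 to 11.17 with MC-LR. This is the log2 of summed linear signals, so the brightest markers weigh most. Of these 7, 5 passed the filter, 3 were well above background on all arrays and Ckm was on none. Of the 5, 1 was lower and 0 were higher with the groups apart, against 9.2% lower and 11.2% higher over all genes. Marker sets were also read for the liver cell types, blood, fat and pancreas. Muscle was the only set of all those read whose summed ranges did not overlap between the groups. Of 6 liver endothelial markers, all tested, 2 were lower and 0 higher with the groups apart. The part of muscle or endothelial cells in the Ppp1r12a difference was not tested. Ppp1r16b, a membrane-bound subunit described in endothelial cells, differed by -0.13 with overlapping groups.

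Among nuclear and core regulators, Ppp1r10 (PNUTS), which recruits PP1 to RNA polymerase II, stood at 10.56, 10.46 and 10.93 in controls and at 10.36, 11.68 and 11.18 with MC-LR. One MC-LR mouse lay below all controls and the others above them (difference 0.43, interval -0.42 to 1.27). Ppp1r35, a centriole protein, differed by -0.08. Of the actin, neuronal and apoptosis-linked subunits, Ppp1r9a (neurabin-1, an actin-binding scaffold) differed by 0.15 and Ppp1r13b (ASPP1, a p53 partner) by -0.18, both with overlapping groups. None of the 10 genes in these sets had an unadjusted p under 0.05.

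Of the other PP1 regulators, Ppp1r21, a subunit of an endosomal complex, stood at 10.95, 10.89 and 11.00 in controls and at 10.74, 10.74 and 10.58 with MC-LR. Every MC-LR mouse lay below every control (difference -0.26, interval -0.50 to -0.02, unadjusted p = 0.036, adjusted p = 0.36). Ppp1r42, a leucine-rich repeat protein that binds PP1, stood at 6.92, 6.86 and 7.11 in controls and at 5.79, 6.82 and 4.91 with MC-LR. The controls were close together and the MC-LR mice were spread, with the second of them just under the lowest control. Its difference was -1.12 ± 0.46 (SE, adjusted p = 0.39) and -0.51 with normexp background correction. A second probe of Ppp1r42 stayed at background in all 6 mice.

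**Figure D4:**
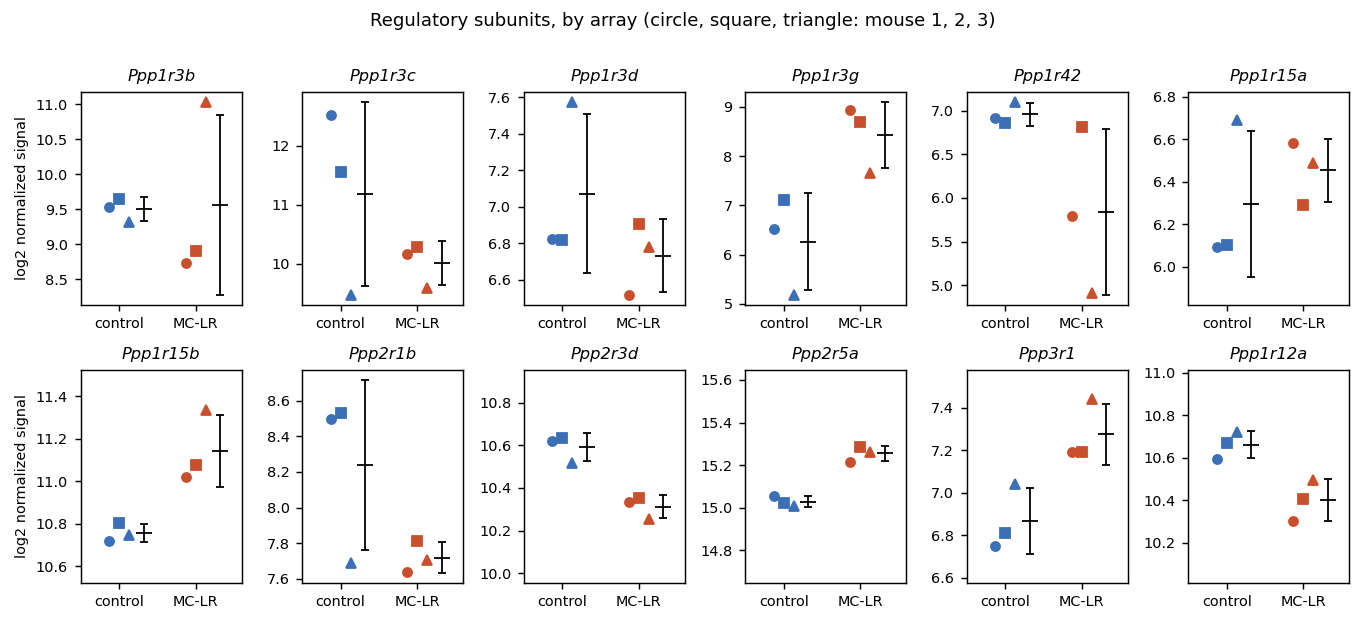
Log2 normalized signal (vertical axis, scaled per panel) of 12 regulatory subunits in each mouse, controls in blue and MC-LR mice in orange, with the mean and SD (n = 3) as a black bar. In Ppp1r3c and Ppp2r1b control 3 (triangle) lies with the MC-LR mice, in Ppp1r3b MC-LR mouse 3 lies above all others, and in Ppp1r3g, Ppp1r42, Ppp1r15b, Ppp2r3d, Ppp2r5a, Ppp3r1 and Ppp1r12a the groups are apart.

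The B subunits choose the substrates of PP2A. Among the 5 B-prime (B56) subunits 4 were above 0 and 1 below, with a median difference of 0.14. Ppp2r5a stood at 15.05, 15.02 and 15.01 in controls and at 15.22, 15.28 and 15.26 with MC-LR. Its within-group SD lay at percentile 0.571 of all genes tested, and the groups lay apart by more than their ranges (difference 0.23, or 1.17-fold with an interval of 1.01 to 1.35; unadjusted p = 0.0367, adjusted p = 0.361). The other passing probes of Ppp2r5a differed by 0.01 and 0.07. Ppp2r5e stood at 10.76, 11.15 and 11.23 in controls and at 11.30, 11.28 and 11.49 with MC-LR (difference 0.31, adjusted p = 0.453). Its 3 other passing probes were also higher with MC-LR, by 0.24 to 0.58. Ppp2r5c, added after its values were seen, differed by 0.07 at the probe used. Its other passing probes were lower with MC-LR, by -0.10 and by -0.44, the latter with the groups apart (10.18, 10.26 and 10.27 in controls, 9.43, 9.89 and 10.06 with MC-LR, unadjusted p = 0.0439, adjusted p = 0.376).

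Of the B double-prime subunits, which bind calcium, Ppp2r3d (PR59, described in mouse) stood at 10.62, 10.64 and 10.52 in controls and at 10.33, 10.35 and 10.25 with MC-LR. The groups were apart (difference -0.28, interval -0.50 to -0.06, unadjusted p = 0.0218, adjusted p = 0.321), and a second probe differed by -0.22. Ppp2r3a, a related gene, stood at 7.52, 7.64 and 7.50 in controls and 7.9996, 7.90 and 7.55 with MC-LR, a difference of 0.26 with overlapping groups. The B (B55) subunit Ppp2r2a, widely expressed, differed by -0.07. Ppp2r2c, a B55 subunit best known from brain, read 3.01, 2.07 and 4.57 in controls and 3.66, 3.94 and 3.91 with MC-LR. It was well above background on 1 control and 3 MC-LR arrays, and its difference of 0.62 turned to -0.73 with slide as a block. Ppp2r4, the PP2A activator now named Ptpa, differed by -0.08.

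The regulatory subunit of calcineurin, which binds calcium, is encoded by Ppp3r1 and, in testis, Ppp3r2. Ppp3r1 stood at 6.75, 6.81 and 7.04 in controls and at 7.19, 7.19 and 7.44 with MC-LR. Every MC-LR mouse lay above every control, for a difference of 0.41 ± 0.13 (SE), or 1.33-fold with an interval of 1.07 to 1.65 (unadjusted p = 0.0193, adjusted p = 0.314). It was 0.23 with slide as a block and 0.49 without control 3, and the other passing probes differed by 0.08 and 0.14. Ppp3r2 differed by -0.02. The PP4 subunit Ppp4r2 differed by -0.16, the PP6 subunits Ppp6r1 and Ppp6r2 by 0.05 and -0.11, and the pseudogene Ppp4r1l-ps by 0.14. A further probe of Ppp6r1 differed by 0.23 with the groups apart (limma, unadjusted p = 0.047, adjusted p = 0.381), and another by 0.05.

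Partners of these phosphatases that carry other symbols were taken from a list of PP2A biogenesis factors and inhibitors, striatin complex members, PP1, PP4, PP5 and PP6 partners, calcineurin regulators and the separate PPM family of metal-dependent phosphatases. Of 72 tested, 0 passed the adjusted threshold, 6 were higher and 3 lower at an unadjusted p under 0.05, and the median difference was -0.01. That is 12.5% against the 12.9% over all genes. The smallest p came from Cdca2 (Repo-Man, which brings PP1 to chromatin), at 11.26, 11.43 and 11.56 in controls and 12.01, 11.86 and 11.86 with MC-LR (difference 0.50, adjusted p = 0.258). Zfyve9, an endosomal adaptor of TGF-beta signalling that binds PP1, differed by 0.59 (adjusted p = 0.289), the PPM phosphatase Ppm1f by -0.36 (adjusted p = 0.31) and Ilkap, another PPM phosphatase, by 0.33 (adjusted p = 0.31), each with the groups apart. Of 17 PPM genes tested, 3 were higher and 2 lower at an unadjusted p under 0.05. That is 29.4% of a small group picked out after its values were seen, against the 12.9% over all genes. In the other groups of the list the share ran from 0% to 16.7%.

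Where a subunit gene had more than 1 probe, the probes gave a further reading of the same RNA. Among the 67 tested genes, 38 had other passing probes, 62 in all. The sign of the difference matched that of the brightest probe for 43 of the 62 (69.4%), and over all genes the share was 68.5%. Among the genes named here, the other passing probes went both ways or the other way for Ppp2ca, Ppp2r1b, Ppp2r5c, Ppp3cb, Ppp3cc, Ppp1r10, Ppp1r16b and Ppp4r1l-ps.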

How the data were processed

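The scanner files came from Agilent Feature Extraction 10.7, according to the submitters' processing notes. Their intensity columns, per the file headers, are a processed signal (background removed and spatial trend taken out, dim spots replaced by surrogates) and uncorrected mean and local background signals. The deposited table holds log2 values that the authors quantile normalized in GeneSpring, per the series' design text. Against log2 of the processed signal of the same array each column had r of 0.998 or more and its median was 5.94, so its scale is log2, higher means more signal, and genes are not centred.

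The deposited log2 values were used here. A gene, named as in the scanner files, was read by its probe with the highest mean over the 6 arrays and kept if well above background on all 3 arrays of a group (18910 genes). MC-LR was tested against control by limma 3.58.1 under R 4.3.3 (two-sided, 4 residual and 2.04 prior degrees of freedom, Benjamini-Hochberg over all genes, threshold 0.05), after a test on simulated data. Alternatives were own quantile normalization, 75th percentile scaling, normexp (offset 50), other filters and probe rules, a slide block (fixed, then random), the arrays of slide 2, replicate block, trend with robust, and each array left out.

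Members, lists and tests were chosen with earlier results of these data known. Named are any gene past the adjusted threshold, all catalytic and scaffold subunits, the 2 smallest p per role, the 6 largest differences each way among genes with groups apart, and 4 partners; others are marked. One probe sequence is not reported here.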

Additional observations from a re-analysis of the deposited data

How the results depend on the processing

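In all 18 alternatives 0 subunit genes passed the adjusted threshold. The count at an unadjusted p under 0.05 was 4 higher and 3 lower in the main fit. It ranged from 1 to 5 higher and 0 to 5 lower when each array was left out. With every probe as its own feature, Ppp1r42 was also lower at this threshold (limma, unadjusted p = 0.0482). The 9 genes too dim for the filter entered only the alternative without it. The replicate block left 0 lower and 3 higher. Deviations from the group means correlated at 0.18, -0.32 and -0.19 between same-numbered mice, and at -0.21 to 0.36 between differently numbered ones. These correlations cannot decide whether the numbers pair the mice. Deviations of 3 mice from their own mean depend on each other, and controls 1 and 2 were on another slide than all MC-LR mice. Over all genes 3 were called, and 50 without control 3, 15 with slide as a block and 0 with the replicate block or within slide 2, where 2300 had an unadjusted p under 0.05 (1846 with the replicate block).

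Of 41 named genes 25 kept the sign of their difference in every alternative and 16 did not in at least 1. With slide as a block, and equally in slide 2 alone, the sign turned for Ppp1r3c (0.55), Ppp1r13b (0.17), Ppp1r15a (-0.24), Ppp2cb (-0.038), Ppp2r1b (0.030), Ppp2r2c (-0.73), Ppp2r4 (0.066), Ppp3r2 (0.053), Ppp4r1l-ps (-0.044), Ppp6r1 (-0.076) and Ppp6r2 (0.15). With slide as a random block it turned for Ppp1r15a (-0.0090), Ppp3r2 (0.014) and Ppp6r1 (-0.0046), under normexp for Ppp3r2 (0.012), and with the mean of a gene's probes for Ppp2ca (0.096) and Ppp3cc (0.060). When each array was left out, the range crossed 0 for Ppp1cc (-0.081 to 0.020), Ppp2r2a (-0.16 to 0.018) and Ppp3cc (-0.13 to 0.058), each through control 3, for Ppp2r1a (-0.098 to 0.020) through MC-LR 3, and for Ppp3r2 (-0.15 to 0.093) through control 2, MC-LR 1 or MC-LR 2. The cause was not tested.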

Other observations

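A further probe of Ppp1r9a, at chr6:5110386-5110445, was well above background on 3 of 6 arrays, all from MC-LR mice. It read 1.96, 2.49 and 3.19 in controls and 3.91, 3.96 and 3.88 with MC-LR. The controls were not well above background on any array, so no fold is given, and the probe was picked out after its values were seen. The brightest probe of the gene differed by 0.15.

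Ppp1r3b and Ppp1r3g both target PP1 to glycogen. The third MC-LR mouse had the highest Ppp1r3b signal of the 6 (11.03). Its Ppp1r3g signal (7.66) was the lowest of the MC-LR mice but lay above every control. In the third control, Ppp1r3c (9.47), Ppp1r3b (9.31) and Ppp1r3g (5.18) were each the lowest of the controls, whereas Ppp1r3d (7.58) was the highest of all 6 mice. These are values of single mice, and no test was made.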
